A study of Homo sapiens with 6 samples.

Results

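Prostaglandins are lipid signals made from arachidonic acid. Cytosolic phospholipase A2 (PLA2G4A) frees the acid from membranes, the cyclooxygenases PTGS1 (COX-1) and PTGS2 (COX-2) turn it into prostaglandin H2, and prostaglandin E synthases (PTGES, PTGES2, PTGES3) make prostaglandin E2, which acts on cells through receptors such as PTGER2 (EP2) and PTGER4 (EP4) and is cleared by HPGD and PTGR1. In skin, keratinocytes are a source of prostaglandin E2 during inflammation and wound repair. PTGS1 is usually described as the steady enzyme and PTGS2 as the inducible one, whose mRNA is short-lived and is held stable by p38 MAP kinase signalling in many cell types. The symbols of these 10 genes were matched to the gene name column of the deposited table, and 10 of 10 were found among 27945 genes. All 10 reached 1 RPKM (reads per kilobase of transcript, scaled to library depth) in at least 1 library and were among the 12925 genes tested.

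The cells were HaCaT, an immortalised human keratinocyte line. The labels give 4 groups: MAPK14-null cells with IL-1α in PBS for 4 h (2 libraries), MAPK14-null cells with PBS alone for 4 h (1 library), wild-type cells with IL-1α (2 libraries) and wild-type cells with PBS (1 library). MAPK14 encodes p38α. The labels do not say whether the null cells are 1 clone or a pool, how the gene was edited, or whether replicates were separate cultures, so p-values measure the spread between these libraries only.

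Depth, recovered from the values, was 21890486 to 34967699 reads in knockout and 16294046 to 18535456 reads in wild-type libraries. MAPK14 itself read 11.0 and 7.41 RPKM in knockout IL-1α libraries and 11.3 RPKM in the knockout PBS library, against 13.3 and 14.8 RPKM and 14.4 RPKM in wild type, a log2 difference of -0.61 under IL-1α that did not pass (adjusted p = 0.301 in limma). The transcript was thus still present. A whole-gene value does not show a small edit. All 7 keratinocyte markers were detected in every library. PTPRC, which defines leukocytes, stood at 0.132 RPKM or less, COL1A2 of fibroblasts at 0.019 RPKM or less, and PECAM1 of endothelium and TYR of melanocytes were listed at 0. Other markers of the same types were detected: the fibroblast collagen COL1A1 read 0.486 to 1.2 RPKM, the melanocyte gene PMEL 0.259 to 0.478 RPKM, and the endothelial cadherin CDH5 10.3 and 1.84 RPKM in knockout IL-1α libraries and 2.94 RPKM in the knockout PBS library, against 11.4 and 11.8 RPKM and 1.45 RPKM in wild type. The summed level of the keratinocyte markers was 2289 to 2853 RPKM in knockout and 3019 to 3833 RPKM in wild-type libraries. That of 5 leukocyte markers was 4.92 to 7.87 RPKM in knockout and 6.47 to 14.9 RPKM in wild-type libraries. Most of it was CD68, and CD14 read 0.397 to 0.943 RPKM. The part of these markers and of CDH5 in the results below was not tested. Knockout IL-1α replicate 2 stood apart from replicate 1 for several of the genes described below. Log2 differences without it are given for PLA2G4A, PTGS1 and PTGER2 where these genes are described.

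PTGS2 (chr1:186640944-186649559, hg19, minus strand) had the widest span of the 10 genes, and 3 short stretches of sequence are shown because the results turn on it and on its neighbour PLA2G4A. The first is a window of 30 bases at the start of the PTGS2 3′ UTR in GENCODE release 29 (GRCh38), with the pentamer ATTTA in capitals (AUUUA in the RNA, the core of the AU-rich elements that mark short-lived mRNAs). The window holds 3 overlapping copies.
PTGS2 AU-rich window: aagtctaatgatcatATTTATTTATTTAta
The whole 3′ UTR of 2562 bases holds 22 copies, and 2.17% of 19428 genes with an annotated 3′ UTR hold as many or more in their longest one. By the same count PTGER4 had 9 copies in 1357 bases, PTGER2 had 5 in 1152 bases, PLA2G4A had 4 in 473 bases, PTGES had 1 in 1280 bases and PTGES2 had 0 in 451 bases. PTGS2 had the most copies of the 10 genes, in the longest of their 3′ UTRs. Per kilobase it had 8.59 copies, beside 8.46 for PLA2G4A and 19.5 for PTGR1, which has 3 copies in 154 bases.

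The other sequences are promoters from RefSeq (GRCh38.p14), each of 300 bases, 250 upstream of the start and 50 downstream, written along the gene's own strand. RefSeq entries matched 10 of the 10 genes. Capitals mark matches, on either strand, to TATAAA (the TATA box), TGACG (the core of a cAMP response element) and the NF-κB frame, which is GGG and CC with 5 bases between them; TGANTCA (the AP-1 site) was searched as well.
PTGS2 (chr1:186680374-186680673, minus strand): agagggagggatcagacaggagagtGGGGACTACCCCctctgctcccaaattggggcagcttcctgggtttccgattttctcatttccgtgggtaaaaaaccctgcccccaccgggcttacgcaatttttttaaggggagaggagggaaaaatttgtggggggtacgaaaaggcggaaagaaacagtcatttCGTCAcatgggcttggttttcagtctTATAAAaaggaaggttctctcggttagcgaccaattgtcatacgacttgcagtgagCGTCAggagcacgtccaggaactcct
PLA2G4A (chr1:186828699-186828998, plus strand): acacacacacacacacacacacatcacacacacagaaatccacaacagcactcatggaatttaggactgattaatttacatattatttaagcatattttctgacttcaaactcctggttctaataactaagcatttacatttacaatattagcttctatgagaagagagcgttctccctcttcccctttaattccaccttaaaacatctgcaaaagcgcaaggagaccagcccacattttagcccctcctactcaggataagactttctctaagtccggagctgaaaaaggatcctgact
The PTGS2 window holds TATAAA, which 11.5% of 35116 RefSeq promoters hold, TGACG at 2 places (24.6% hold it) and 3 overlapping matches to the NF-κB frame (58.7% hold it). The PLA2G4A window holds none of the 4 motifs, and neither window holds TGANTCA, which 7.71% of promoters do. A match describes letters and not a bound site.

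PTGS2, the inducible cyclooxygenase, and PLA2G4A, a phospholipase, read lower in every knockout library than in every wild-type library, with and without IL-1α. So did 8.86% of all tested genes. The means of the prostaglandin E synthases under IL-1α differed between genotypes by 0.10 or less on the log2 scale. PTGS2 stood at 5.06 and 4.50 RPKM (496 and 600 reads) in knockout IL-1α libraries and at 3.15 RPKM (494 reads) in the knockout PBS library, against 14.4 and 12.4 RPKM (1055 and 1027 reads) in wild-type IL-1α libraries and 10.5 RPKM (787 reads) in the wild-type PBS library. Every knockout value lay below every wild-type value, and the nearest pair was 5.06 and 10.5 RPKM. Under IL-1α the means were 4.78 ± 0.395 RPKM in knockout and 13.4 ± 1.47 RPKM in wild type (SD, n = 2 each), a ratio of 0.356. The log2 difference on the log2(RPKM + 0.5) scale was -1.40 ± 0.18 (SE; 95% interval -1.83 to -0.96), with unadjusted p = 0.000203 and adjusted p = 0.073 in limma, so PTGS2 did not pass at 0.05 in this design. It was 35th of 12925 genes by p. Its adjusted p was 0.0178 when only genes reaching 5 RPKM were tested, 0.0309 with voom weights, 0.0458 with the trend with transcript length removed and 0.0422 with a replicate block, and ran up to 0.932 over the other settings. The log2 difference itself ran from -1.54 to -1.29 over 14 settings. In PBS the read ratio of knockout to wild type was 0.30 (exact 95% interval 0.268 to 0.336, counting error only), a log2 difference of -1.59 with 1 library each and no replicate. In bulk RNA, less mRNA per cell and fewer cells with the mRNA cannot be told apart.

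**Figure D1:**
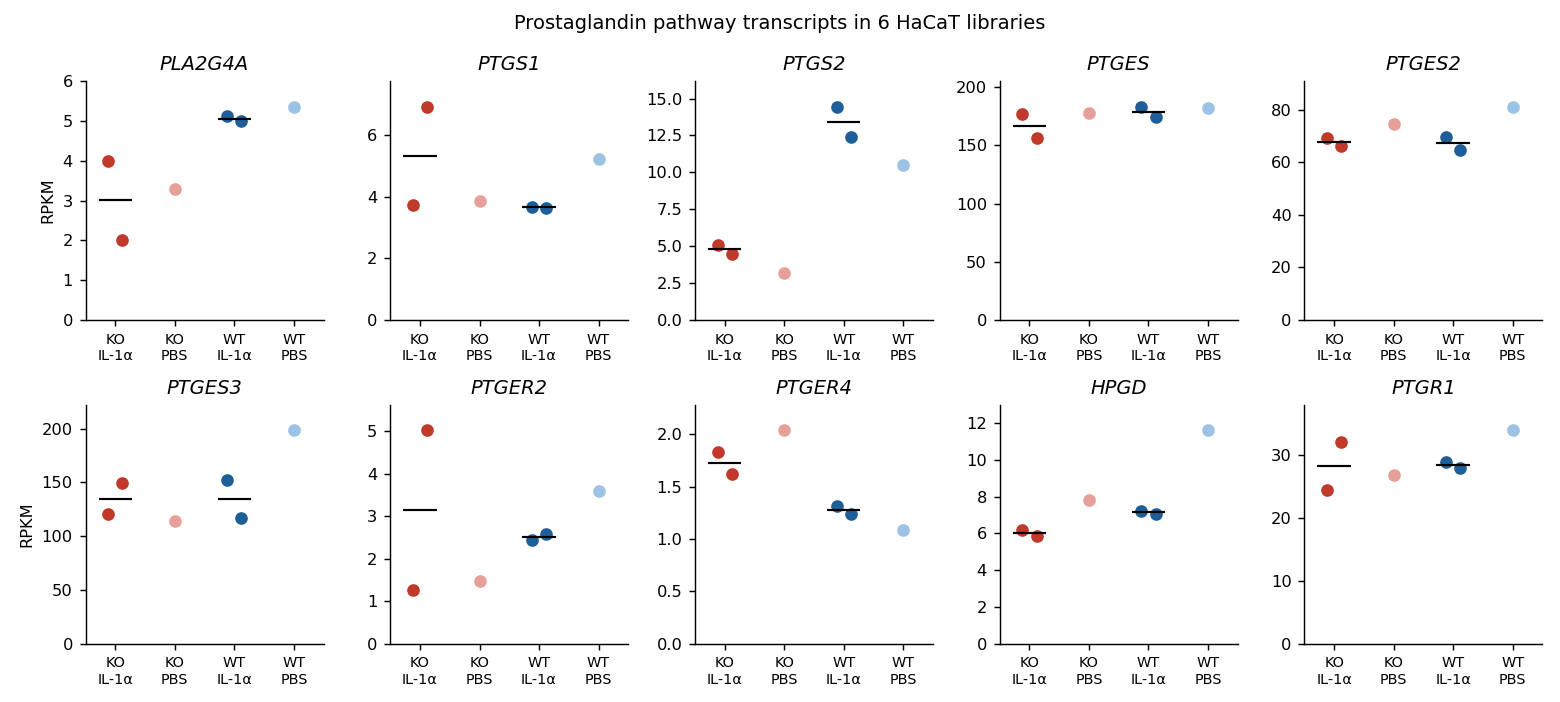
RPKM (y axis, from 0, its own scale in each panel) of the 10 genes in the 6 libraries, grouped on the x axis as knockout (KO) with IL-1α, KO with PBS, wild type (WT) with IL-1α and WT with PBS; each point is 1 library and the black line is the mean of 2. PTGS2 and PLA2G4A lie lower in all 3 knockout libraries than in all 3 wild-type libraries, and PTGER4 lies higher. Of all tested genes, 8.86% lie lower in this way and 15.7% higher.

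PLA2G4A (chr1:186798032-186958113, plus strand) read 4.00 and 2.02 RPKM in knockout IL-1α libraries and 3.30 RPKM in the knockout PBS library, against 5.13 and 5.0 RPKM in wild-type IL-1α libraries and 5.37 RPKM in the wild-type PBS library. Here too the knockout values all lay below the wild-type values, as in 8.86% of all tested genes. The log2 difference under IL-1α was -0.72 ± 0.30 (SE, 95% interval -1.45 to -0.00, adjusted p = 0.335 in limma), and it was -0.31 without knockout replicate 2 and -1.14 without knockout replicate 1. In PBS the read ratio was 0.615 (95% interval 0.519 to 0.730).

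No member passed in limma between the genotypes under IL-1α, where 0.155% of all tested genes did; at unadjusted p below 0.05 there were 2, PTGS2 and PLA2G4A, both lower in knockout, against 14.9% of all genes in either direction and 4.93% in that one. With voom weights 1 passed, PTGS2. In both IL-1α knockout libraries 3 members (PTGS2, PLA2G4A and HPGD) read below both wild-type libraries, where 16.3% of all genes did, and 2 members (PTGS1 and PTGER4) read above, where 32.4% did. Over all 6 libraries 2 members lay lower in every knockout library (8.86% of genes) and 1, PTGER4, higher (15.7% of genes). The median log2 difference of the 10 genes under IL-1α was -0.01, beside 0.09 for all tested genes. In PBS 9 of the 10 genes had a log2 difference below 0, where 51.2% of all genes did, although PTGES and PTGES2 lay above 0 with quantile normalization (0.30 and 0.063) and with the length trend removed (0.15 and 0.16). The median there was -0.47, beside -0.01 for all genes.

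**Figure D2:**
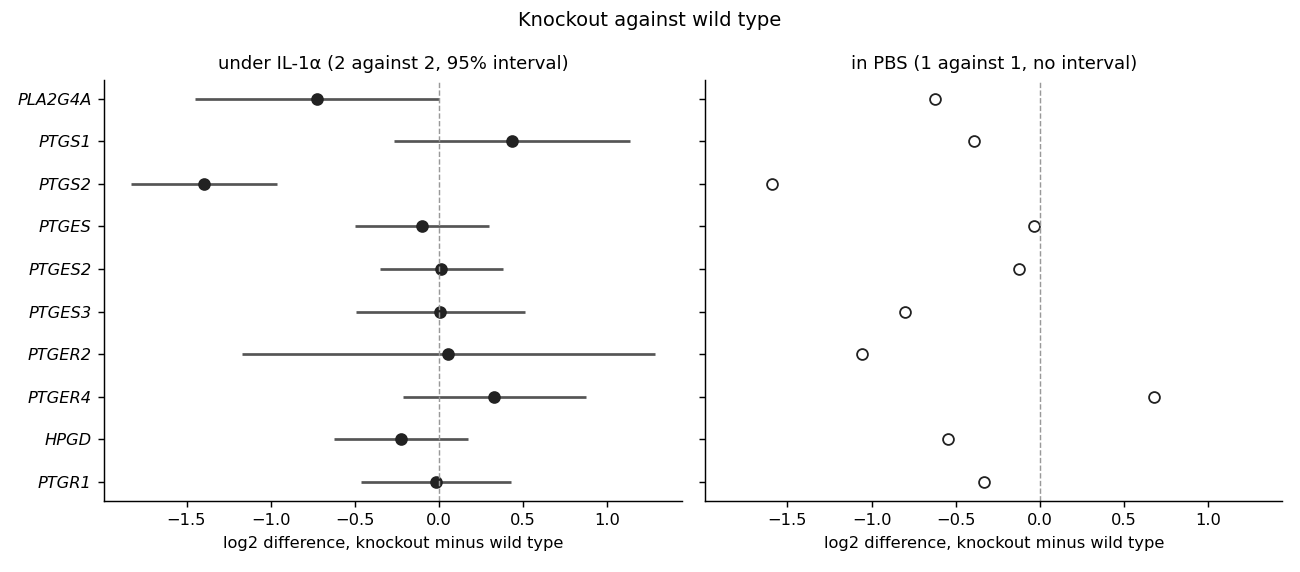
Log2 difference, knockout minus wild type, on the log2(RPKM + 0.5) scale (x axis) for each gene (y axis); left, under IL-1α with 95% intervals from limma, right, in PBS with 1 library per genotype and no interval. Under IL-1α the interval of PTGS2, from -1.83 to -0.96, lies furthest from 0, and in PBS PTGS2 has the lowest value at -1.59.

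PTGS2 and PLA2G4A are neighbours. Their starts lie 148.5 kb apart on chromosome 1 in hg19, they are read in opposite directions, and the one gene the table lists between them is PACERR, a noncoding RNA that starts 227 bases from the PTGS2 start on the other strand and is known in human cells as an antisense RNA of the PTGS2 promoter. PACERR stood at 0.519 and 0.382 RPKM in knockout IL-1α libraries and 0.397 RPKM in the knockout PBS library, against 1.24 and 0.817 RPKM and 0.981 RPKM in wild type, which is 9 to 11 reads in knockout and 12 to 16 reads in wild-type libraries. It reached the 1 RPKM needed for testing in 1 wild-type library and in no knockout library, so its lower values in knockout were favoured by that choice and carry no test here. The labels name a stranded kit. How strand entered the counting is not given in the sources used here, so reads of a partner on the other strand could enter a value. Within 1000 kb of the PTGS2 start 6 genes were tested. The other 3 were the nuclear pore gene TPR, with log2 differences of 0.24 under IL-1α and 0.43 in PBS, ODR4, with -0.14 and -0.37, and the lubricin gene PRG4, with 0.02 and 0.16, all on the far side of PTGS2 from PLA2G4A.

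**Figure D3:**
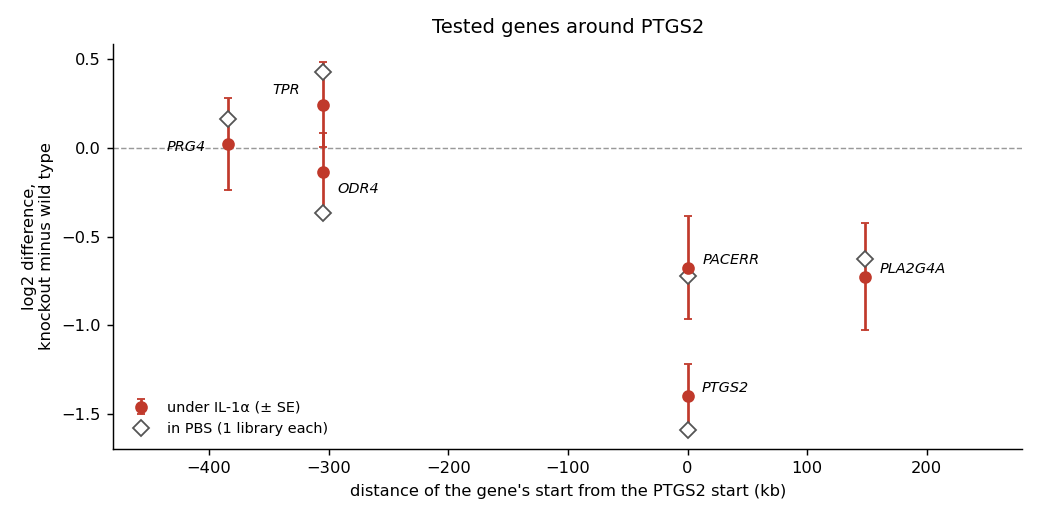
Log2 difference, knockout minus wild type (y axis), of the 6 tested genes within 1000 kb of the PTGS2 start, by the distance of each gene's start from it in kb (x axis); red points are IL-1α libraries with the SE from limma and open diamonds are PBS libraries, 1 of each genotype. Under IL-1α PTGS2 and PLA2G4A lie at -1.40 and -0.72 and TPR, ODR4 and PRG4 between -0.14 and 0.24; in PBS TPR lies at 0.43 and ODR4 at -0.37. PACERR (-0.68 under IL-1α) was drawn although it reached 1 RPKM in wild type only.

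PTGS2 did not pass a test of the response to IL-1α in either genotype. Relative to the PBS library of the same genotype, PTGS2 stood 1.60-fold and 1.43-fold higher in the knockout IL-1α libraries and 1.38-fold and 1.18-fold higher in the wild-type IL-1α libraries. The log2 differences were 0.53 ± 0.22 in knockout (adjusted p = 1) and 0.33 ± 0.22 in wild type (adjusted p = 0.47 in limma). Their difference, the genotype by IL-1α interaction, was 0.19 ± 0.31 (95% interval -0.56 to 0.95, adjusted p = 0.966 in limma), so the response was not shown to differ. PTGS2 also read lower in knockout in PBS, with 1 library of each genotype and no measure of spread. Both IL-1α libraries lay above the PBS library in each genotype, as 27.8% of all genes did in knockout and 27.5% in wild type.

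PTGS1 (chr9:125137601-125157982), the other cyclooxygenase, read 3.74 and 6.91 RPKM in knockout IL-1α libraries and 3.86 RPKM in the knockout PBS library, against 3.68 and 3.62 RPKM in wild-type IL-1α libraries and 5.21 RPKM in the wild-type PBS library. The value of 6.91 RPKM, from knockout replicate 2, stands alone, and the genotypes overlap. The log2 difference under IL-1α was 0.43 ± 0.29 (adjusted p = 0.514 in limma) and was 0.03 without knockout replicate 2. Since RPKM is per length, the cyclooxygenases can be set against each other: the ratio of PTGS2 to PTGS1 level was 1.35 and 0.651 in knockout IL-1α libraries and 0.818 in the knockout PBS library, against 3.93 and 3.41 in wild-type IL-1α libraries and 2.01 in the wild-type PBS library. PTGS2 was the more abundant cyclooxygenase transcript in all 3 wild-type libraries and in 1 of 3 knockout libraries.

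The synthases were the most abundant of these genes. PTGES (chr9:132500615-132515344), the membrane-bound enzyme that usually works with PTGS2, read 177 and 157 RPKM in knockout IL-1α libraries and 178 RPKM in the knockout PBS library, against 183 and 174 RPKM in wild-type IL-1α libraries and 183 RPKM in the wild-type PBS library. Its 6 values lay within 1.17-fold of each other, the narrowest span of the 10 genes. The log2 difference of the genotypes under IL-1α was -0.10 (95% interval -0.50 to 0.30), and that of IL-1α from PBS was -0.10 in knockout (-0.58 to 0.39) and -0.03 in wild type (-0.52 to 0.46). PTGES2 (chr9:130882972-130890467), a Golgi-associated synthase, spanned 66.3 to 74.5 RPKM over the 3 knockout libraries and 64.8 to 81.2 RPKM over the 3 wild-type libraries, which overlap (0.01 under IL-1α, 95% interval -0.35 to 0.38).

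PTGES3 (chr12:57057125-57082192), better known as the HSP90 co-chaperone p23, read 120 and 150 RPKM in knockout IL-1α libraries and 114 RPKM in the knockout PBS library, against 152 and 117 RPKM in wild-type IL-1α libraries and 198 RPKM in the wild-type PBS library. The wild-type PBS library stands above the rest. Its log2 difference of IL-1α from PBS was 0.24 ± 0.25 in knockout and -0.57 ± 0.25 in wild type, and the interaction, 0.81 ± 0.36, had unadjusted p = 0.0636 and adjusted p = 0.966 in limma. The read ratio of knockout to wild type in PBS was 0.574 (95% interval 0.555 to 0.594). In the same wild-type PBS library 83.2% of reads fell in exons, against 80.1% to 81.0% in the other 5, and its part in these values was not tested.

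Both receptors were near the low end of what was measured. PTGER4 (chr5:40680032-40693837) read 1.83 and 1.63 RPKM (137 and 165 reads) in knockout IL-1α libraries and 2.04 RPKM (243 reads) in the knockout PBS library, against 1.31 and 1.23 RPKM (73 and 78 reads) in wild-type IL-1α libraries and 1.09 RPKM (62 reads) in the wild-type PBS library. It was the single member higher in every knockout library than in every wild-type library, as 15.7% of all tested genes were. The log2 difference under IL-1α was 0.33 ± 0.22 (95% interval -0.22 to 0.88, adjusted p = 0.523 in limma), and the read ratio in PBS was 1.87 (95% interval 1.41 to 2.52, counting error only).

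PTGER2 (chr14:52781016-52795322) varied most between replicates. It read 1.27 and 5.02 RPKM (69 and 370 reads) in knockout IL-1α libraries and 1.47 RPKM (127 reads) in the knockout PBS library, against 2.43 and 2.60 RPKM (98 and 119 reads) in wild-type IL-1α libraries and 3.60 RPKM (149 reads) in the wild-type PBS library. Knockout replicate 2 was the highest of all 6 libraries while the other 2 knockout libraries were the lowest. The log2 difference under IL-1α was 0.06 ± 0.51 (adjusted p = 0.971 in limma), and -0.76 without knockout replicate 2 or 0.88 without knockout replicate 1. PTGER2 and PTGS2 were the 2 members at least 2-fold lower in knockout than in wild type in PBS, where 4.11% of all genes were lower by as much and 6.53% lay that far apart in either direction (with a pseudocount of 1 PTGER2 was at -0.90, short of it), and the read ratio of PTGER2 there was 0.408 (95% interval 0.319 to 0.520).

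Of the clearing enzymes, HPGD (chr4:175411328-175444044), which oxidises prostaglandin E2 to its 15-keto form, read 6.20 and 5.87 RPKM in knockout IL-1α libraries and 7.79 RPKM in the knockout PBS library, against 7.21 and 7.07 RPKM in wild-type IL-1α libraries and 11.6 RPKM in the wild-type PBS library. Both IL-1α libraries lay below PBS in each genotype. The log2 difference of IL-1α from PBS was -0.34 ± 0.20 in knockout (adjusted p = 1) and -0.66 ± 0.20 in wild type (unadjusted p = 0.0156, adjusted p = 0.191 in limma), and the interaction was 0.32 ± 0.28 (adjusted p = 0.966). PTGR1 (chr9:114325247-114361711), the reductase that acts on 15-keto prostaglandins and on leukotriene B4, read 24.4 and 32.1 RPKM in knockout IL-1α libraries and 26.9 RPKM in the knockout PBS library, against 28.9 and 27.9 RPKM and 33.9 RPKM in wild type. The genotypes overlap only through the 32.1 RPKM of knockout replicate 2.

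**Figure D4:**
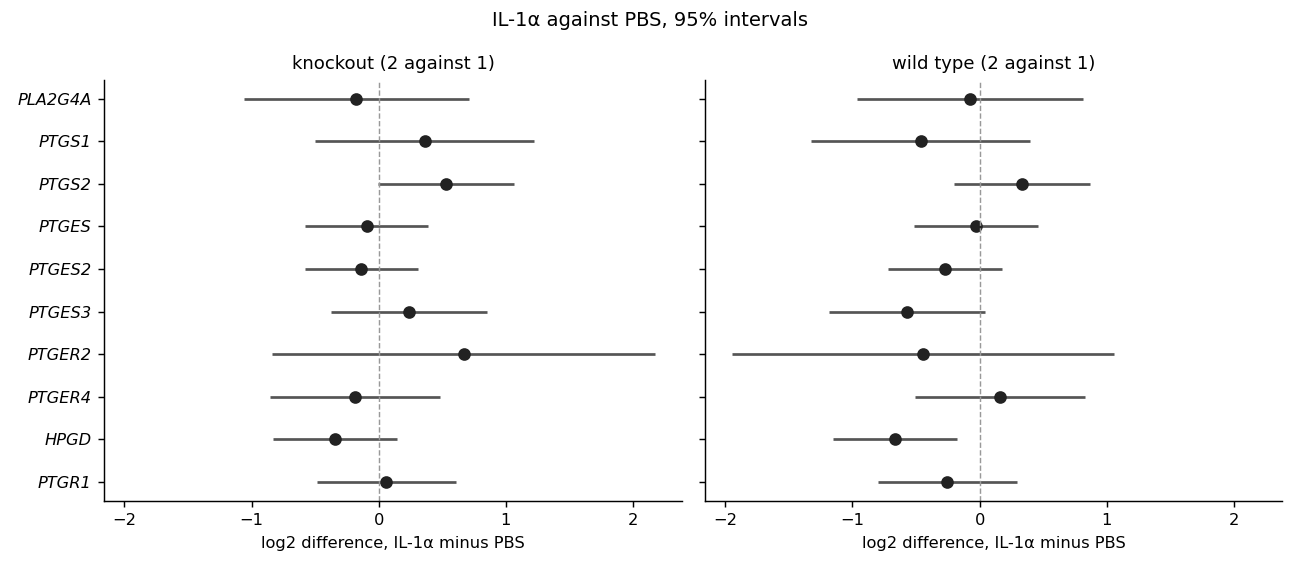
Log2 difference, IL-1α minus PBS, on the log2(RPKM + 0.5) scale (x axis) for each gene (y axis), in knockout (left) and wild type (right), with 95% intervals from limma; each contrast sets 2 libraries against 1. The interval of HPGD in wild type, from -1.15 to -0.18, is the only one of the 20 drawn that leaves out 0.

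In limma 0 of the 10 genes passed in the response to IL-1α in either genotype, where 0.0696% of all tested genes passed in knockout and 0.217% in wild type. At unadjusted p below 0.05 there was 0 in knockout (3.58% of all genes) and 1 in wild type, HPGD, which was lower (18.1% of all genes in either direction, 13.4% lower). With voom weights the count was 0 in both. The interaction gave 0 members at adjusted or unadjusted p below 0.05, beside 0% and 4.39% of all genes. In wild type 7 members read below PBS in both IL-1α libraries, where 54.3% of all genes did, and the median difference of the 10 genes was -0.26 beside -0.14 for all genes. In knockout 4 members did so (36.4% of all genes), with medians of -0.02 and -0.02.

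Levels per length, averaged over the 6 libraries, were in the order PTGES (175 RPKM), PTGES3 (142 RPKM), PTGES2 (71.0 RPKM), PTGR1 (29 RPKM), PTGS2 (8.34 RPKM), HPGD (7.62 RPKM), PTGS1 (4.50 RPKM), PLA2G4A (4.13 RPKM), PTGER2 (2.73 RPKM) and PTGER4 (1.52 RPKM). The ranges over libraries of PTGES and PTGES3 overlap, and from PTGS2 downward each gene's range overlaps that of the next. PTGES2 and PTGR1 did not overlap with their neighbours. The order of PTGS2 and HPGD depended on the library: HPGD read higher in all 3 knockout libraries and in the wild-type PBS library, and PTGS2 in both wild-type IL-1α libraries.

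The genes whose profile over the 6 libraries was most like that of PTGS2 were sought among 8252 genes averaging at least 5 RPKM, by the root-mean-square difference of log2(RPKM + 0.5) profiles centred on their means. Among the nearest 5 were the mucin MUC1 (0.19), the readthrough transcript FKBP1A-SDCBP2 (0.21), the water and glycerol channel AQP3 (0.22) and the WNT inhibitor DKK1 (0.24). MUC1 read 6.85 and 6.79 RPKM in knockout IL-1α libraries and 4.05 RPKM in the knockout PBS library, against 22.9 and 17.1 RPKM in wild-type IL-1α libraries and 10.8 RPKM in the wild-type PBS library. Since these genes were chosen for a profile like that of PTGS2, their lower values in knockout restate the choice and are given with no test. The readthrough transcript shares exons with its parent genes, so its value is uncertain.

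Of 61 further genes of arachidonate metabolism, grouped by role, 60 symbols matched the table (GPR44 is the older name of PTGDR2) and 33 were tested. In limma 0 passed in any of the 4 contrasts. At unadjusted p below 0.05 there were 7 of 33 between the genotypes under IL-1α (14.9% of all genes). MGLL and AKR1C1 among these reached 1 RPKM in knockout only. The same threshold gave 1 in the knockout response (3.58%), 5 in the wild-type response (18.1%) and 0 in the interaction (4.39%). LTC4S, lower under IL-1α among those 5, reached 1 RPKM only in the wild-type PBS library (1.72 RPKM, 19 reads). Its lower values were thus favoured by that filter. With 1 library each in PBS, 1 was at least 2-fold higher in knockout (2.42% of all genes) and 1 lower (4.11% of all genes). MGLL, the lipase that frees arachidonate from the endocannabinoid 2-arachidonoylglycerol, was the higher one: it read 2.3 and 2.35 RPKM in knockout IL-1α libraries and 2.29 RPKM in the knockout PBS library, against 0.552 and 0.306 RPKM and 0.396 RPKM in wild type. Its 3 knockout values lay close together and above all wild-type values, but it reached 1 RPKM in knockout only, so it entered the tested genes through the group where it was high and its difference of 1.62 on the log2 scale is a description. PLA2G2A, a secreted phospholipase, was the lower one in PBS, at 0.065 RPKM (2 reads) in knockout and 2.51 RPKM (37 reads) in wild type. Under IL-1α it read 0.052 and 1.10 RPKM in knockout and 1.39 and 0.734 RPKM in wild type, where the genotypes overlap only through knockout replicate 2.

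**Figure D5:**
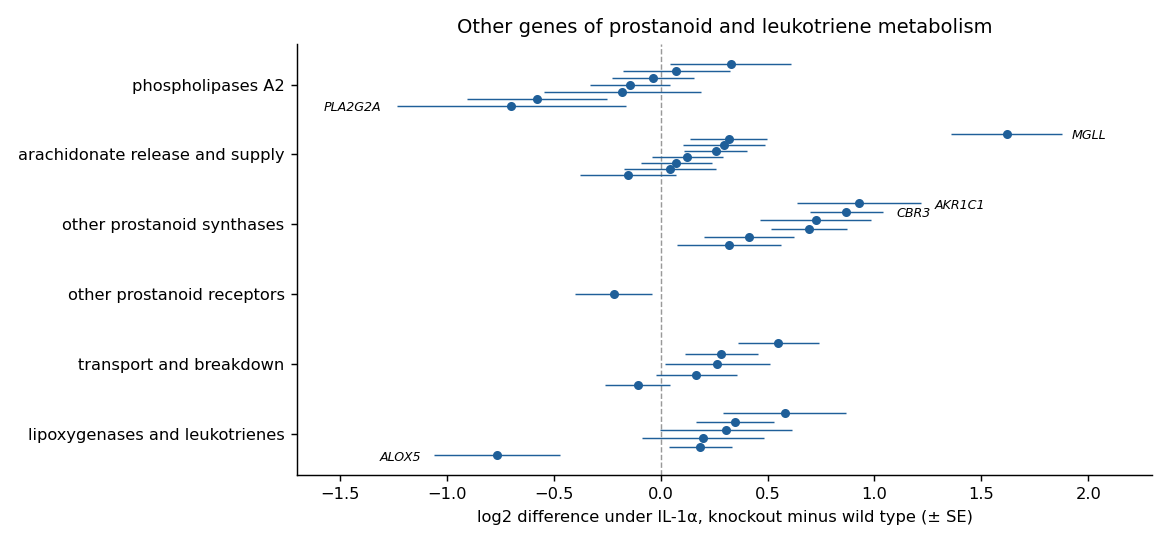
Log2 difference under IL-1α, knockout minus wild type, with the SE from limma (x axis), for the 33 tested genes outside the 10, grouped by role (y axis); each point is a gene. MGLL has the highest value at 1.62. The 6 tested genes grouped as other prostanoid synthases, all CBR or AKR reductases, lie above 0. MGLL and AKR1C1, which is among those reductases, were drawn although they reached 1 RPKM in knockout only.

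The 6 tested genes grouped as other prostanoid synthases were the reductases CBR1, CBR3, AKR1C1, AKR1C2, AKR1C3 and AKR1B1. All had positive log2 differences under IL-1α (median 0.71, beside 0.09 for all tested genes, of which 61% were above 0). AKR1C1 among them reached 1 RPKM in knockout only, so its positive difference was favoured by that filter. The count and the median include it and are a description. The 6 genes are not separate: 3 are closely related AKR1C copies, whose counts are uncertain, and CBR1 and CBR3 are neighbours on chromosome 21. CBR1, the carbonyl reductase that converts prostaglandin E2 to prostaglandin F2α, read 49.3 and 38.4 RPKM in knockout and 27.3 and 26.2 RPKM in IL-1α-treated wild type, and 54.8 RPKM in knockout against 42.7 RPKM in wild type in PBS. Its log2 difference was 0.69 under IL-1α (adjusted p = 0.2 in limma). AKR1B1, an aldose reductase with prostaglandin F synthase activity, read 62.2 and 38.3 RPKM in knockout and 39.1 and 38.9 RPKM in wild type under IL-1α. These overlap only through the 38.3 RPKM of knockout replicate 2. CBR3, chosen after its values were seen, read 8.71 and 9.68 RPKM in knockout and 4.99 and 4.63 RPKM in wild type under IL-1α, and lay higher in all 3 knockout libraries than in all 3 wild-type libraries, as 15.7% of all genes did (0.87, adjusted p = 0.161 in limma). The synthases of prostaglandin D2, PTGDS and HPGDS, were listed at 0 in every library, and those of prostacyclin and thromboxane, PTGIS and TBXAS1, read 0.118 RPKM or less.

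Among the other prostanoid receptors PTGDR2, the second receptor of prostaglandin D2, was the single one tested, at 4.94 and 4.50 RPKM in knockout and 5.83 and 5.31 RPKM in wild type under IL-1α (log2 difference -0.22, adjusted p = 0.596 in limma). The others, PTGER1 and PTGER3 among them, read 0.043 RPKM or less, so PTGER2 and PTGER4 were the prostaglandin E2 receptors detected above 1 RPKM. Of the transport genes the organic anion carrier SLCO3A1 read 47.8 and 44.0 RPKM in knockout and 51.3 and 47.8 RPKM in IL-1α-treated wild type, and the exporter ABCC4 read 11.3 and 9.63 RPKM in knockout and 8.28 and 10.3 RPKM in wild type. Both genes overlap between the genotypes (adjusted p = 0.769 and 0.709 in limma), ABCC4 only through the 9.63 RPKM of knockout replicate 2. On the leukotriene side LTA4H, the hydrolase that makes leukotriene B4, read 49.7 and 48.2 RPKM in knockout and 41.5 and 44.5 RPKM in wild type under IL-1α (0.19, adjusted p = 0.585), and its receptor LTB4R read 4.64 and 4.30 RPKM in knockout and 3.43 and 3.38 RPKM in wild type (0.35, adjusted p = 0.418). Both lay higher in all 3 knockout libraries than in all 3 wild-type libraries, as 15.7% of all genes did. ALOX5, the lipoxygenase that starts leukotriene synthesis, named after its values were seen, went the other way, with 2.07 and 1.06 RPKM in knockout IL-1α libraries and 1.94 RPKM in the knockout PBS library, against 3.11 and 2.69 RPKM and 2.83 RPKM in wild type. Every knockout value of ALOX5 lay below every wild-type value, as in 8.86% of all genes (-0.76, unadjusted p = 0.0392, adjusted p = 0.316 in limma), and none of the 3 passed.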

How the data were processed

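RNA of 6 HaCaT libraries was sequenced from a stranded mRNA kit, per the labels' protocols. The submitters' processing notes name bcl2fastq (2.20.0.422), STAR, HOMER and hg19. Per the file headers, HOMER gave the deposited RPKM values (also headed FPKM) from reads in exons, with 1 line per gene.

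The 12925 genes that reached 1 RPKM in any library entered limma (3.58.1, under R 4.3.3) as log2(RPKM + 0.5), with a mean per group, a variance trend and Benjamini-Hochberg adjustment over all of them (threshold 0.05). The spread was estimated from the replicated groups (2 residual and 4.2 prior degrees of freedom), and PBS libraries were assumed to vary like them. Genotypes in PBS, with 1 library each, were compared by fold (at least 2-fold, with 1 RPKM in the higher library). To estimate depth, values between 0.02 and 1 RPKM were turned into reads whole to within 0.1 (97.9% to 99.8% of them came out whole). These reads gave exact intervals, which cover counting error only, and the voom alternative. The fit was also run on simulated reads, with planted differences larger than that of PTGS2 under IL-1α. That run does not show how well smaller differences are found.

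The members and lists were chosen with earlier results of these data known. Further pathway genes were named if they passed a test or were 2-fold apart in PBS, and otherwise as the 2 most abundant of their role. Of the 5 genes with profiles nearest to PTGS2, 1 is not reported here. The alternatives were other pseudocounts, filters, normalizations and variance models, leaving out each IL-1α library, and a replicate block.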

Additional observations from a re-analysis of the deposited data

How the results depend on the processing

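The fits have 2 residual degrees of freedom, so counts of passing genes depend on the settings. For the IL-1α response in wild type (28 genes) the count was 49 without a filter, 162 with a filter of 5 RPKM, 48 with median-of-ratios rescaling, 11 with voom weights, 96 with the length trend removed and 81 with the replicate block; without 1 IL-1α library it ran from 0 to 46. In knockout (9 genes) it was 5 with a pseudocount of 1, 65 without a filter, 49 at 5 RPKM, 2 with voom weights, 4 without the variance trend, 21 with the length trend removed and 18 with the block, and 0 to 0 without 1 library. Between genotypes under IL-1α (20 genes) it was 7 with a pseudocount of 0.1, 0 without a filter, 88 at 5 RPKM, 13 with quantile normalization, 55 with voom weights, 0 without the variance trend, 40 with the length trend removed and 58 with the block, and 0 to 0 without 1 library. The interaction (0 genes) had 87 without a filter. In PBS 844 genes lay 2-fold apart, and 508 with a filter of 5 RPKM. Of the 10 members, 1, PTGS2, passed between genotypes at 5 RPKM, with voom weights, with the length trend removed and with the replicate block. Why it passed in these settings was not tested. The labels number the replicates within each group and state no link between same-numbered replicates of the genotypes. Across 12925 genes the difference of replicate 1 from replicate 2 under IL-1α correlated at 0.0086 between knockout and wild type. Whether same-numbered replicates were handled together was not tested.

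Some differences turned direction, among them the knockout responses of PTGER2 (0.67) and PTGS1 (0.36). With median-of-ratios rescaling the wild-type response was 0.058 for PLA2G4A and 0.12 for PTGES, and the genotype difference under IL-1α was -0.091 for PTGES2, -0.10 for PTGES3 and -0.032 for PTGER2. With quantile normalization these were 0.035 for PLA2G4A, 0.17 for PTGES and -0.10 for PTGER2, and the interaction of PTGES2 was -0.057. With the length trend removed the wild-type response was 0.050 for PLA2G4A, 0.25 for PTGES, 0.12 for PTGES2 and 0.16 for PTGR1, the genotype difference -0.046 for PTGES2, -0.055 for PTGES3 and -0.027 for PTGER2, and the interaction -0.20 for PTGES2 and -0.050 for PTGR1. Without 1 library the knockout response ran from -0.59 to 0.24 for PLA2G4A, -0.15 to 1.49 for PTGER2, -0.14 to 0.25 for PTGR1 and -0.040 to 0.77 for PTGS1, the wild-type response from -0.066 to 0.0059 for PTGES, the genotype difference from -0.76 to 0.88 for PTGER2, -0.038 to 0.064 for PTGES2, -0.18 to 0.20 for PTGES3 and -0.21 to 0.18 for PTGR1, and the interaction from -0.52 to 0.32 for PLA2G4A and -0.15 to 0.023 for PTGES. The cause was not tested. None of these reversed values passed. Voom was not run for the PBS comparison, and PTGER4 has no value under the filter of 5 RPKM.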
